A study of Mus musculus with 12 samples.

Results

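The mitosis genes described here are 40 genes of the cyclins, spindle, kinetochore and cytokinesis, selected by symbol from the 23238 gene symbols counted in mouse lung. All 40 symbols were found, and all 40 passed the filter on low counts that left 16484 genes for testing. RNA was sequenced from 12 lung samples in 4 groups of 3: lung that received no irradiation, and lung taken 8, 11 and 14 d after irradiation. The irradiated samples came from irradiated areas of the lung. The radiation dose, the strain, age and sex of the mice and the lung region of the unirradiated samples were not given in the sources used here, and no genetic change or drug is named for any group. The labels number the samples of each group without saying that they came from separate mice, so the p-values speak only of variation among these samples, and that variation may be technical.

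As background, a cell enters mitosis when the kinase Cdk1, bound to A- and B-type cyclins, becomes active. The spindle then attaches to kinetochores on condensed chromosomes, a checkpoint holds the cell until every chromosome is attached, and the anaphase-promoting complex releases separase to part the sister chromatids. Most of these genes are switched on together late in the cell cycle, and their products are scarce in resting cells, so their transcripts are widely used as a readout of cycling cells. The adult lung turns over slowly at rest and holds few such cells.

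The mitosis genes rose after irradiation, from a low level, and their summed level was higher at 11 and 14 d than at 8 d. Levels are given as CPM, the count of a gene scaled to a common library total, with library sizes adjusted for composition. Summed over the 40 genes, the unirradiated libraries held 298, 275 and 366 CPM. The sum was 545, 543 and 481 CPM at 8 d, 952, 649 and 726 CPM at 11 d, and 765, 718 and 778 CPM at 14 d. Every irradiated library lay above every unirradiated library, and the 8 d libraries lay below all those of 11 and 14 d. Against the unirradiated mean of 313 ± 47.3 CPM (SD, n = 3) the sum was 1.67-fold higher at 8 d, 2.48-fold at 11 d and 2.41-fold at 14 d. Replicate 1 of the 11 d group stood apart: it was the highest 11 d library for 36 of the 40 genes and the highest of all 12 libraries for 31. Without it the 11 d sum was 2.20-fold the unirradiated mean.

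Gene by gene, edgeR's quasi-likelihood test with Benjamini-Hochberg adjustment over all genes tested called 25 of 40 mitosis genes higher and 0 lower at 8 d. Of all genes tested 13% were called higher and 10.6% lower in that comparison. At 11 d 37 were higher and 0 lower, against 19.4% and 17.8% of all genes. At 14 d 37 were higher and 1 lower, against 20.0% and 18.9% of all genes. The 3 comparisons share the unirradiated libraries and are not independent. The median log2 change of the 40 genes was 0.85 at 8 d, 1.48 at 11 d and 1.23 at 14 d, while the median over all genes tested was 0.01, -0.01 and 0.01. A rise of at least 2-fold was called for 13 genes at 8 d and for 30 genes at each of 11 and 14 d. Of the 16484 genes tested, 1147, 1588 and 1845 had such a called rise at 8, 11 and 14 d. Called higher at all 3 times were 25 genes, against 9.92% of all genes. At 8 d 29 genes had all irradiated libraries above all unirradiated libraries, as had 19.8% of all genes. The corresponding counts were 38 at 11 d, against 28.2%, and 39 at 14 d, against 25.8%. Where no mitosis gene was called lower, an unadjusted p under 0.05 in either direction was counted too. It was reached by 34 mitosis genes at 8 d and 37 at 11 d, against 5788 and 7667 of the 16484 genes tested. DESeq2 and limma-voom called no mitosis gene lower at 8 or 11 d either. In bulk lung RNA, a change in the number of cells that carry these transcripts and a change in RNA per cell cannot be told apart.

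**Figure D1:**
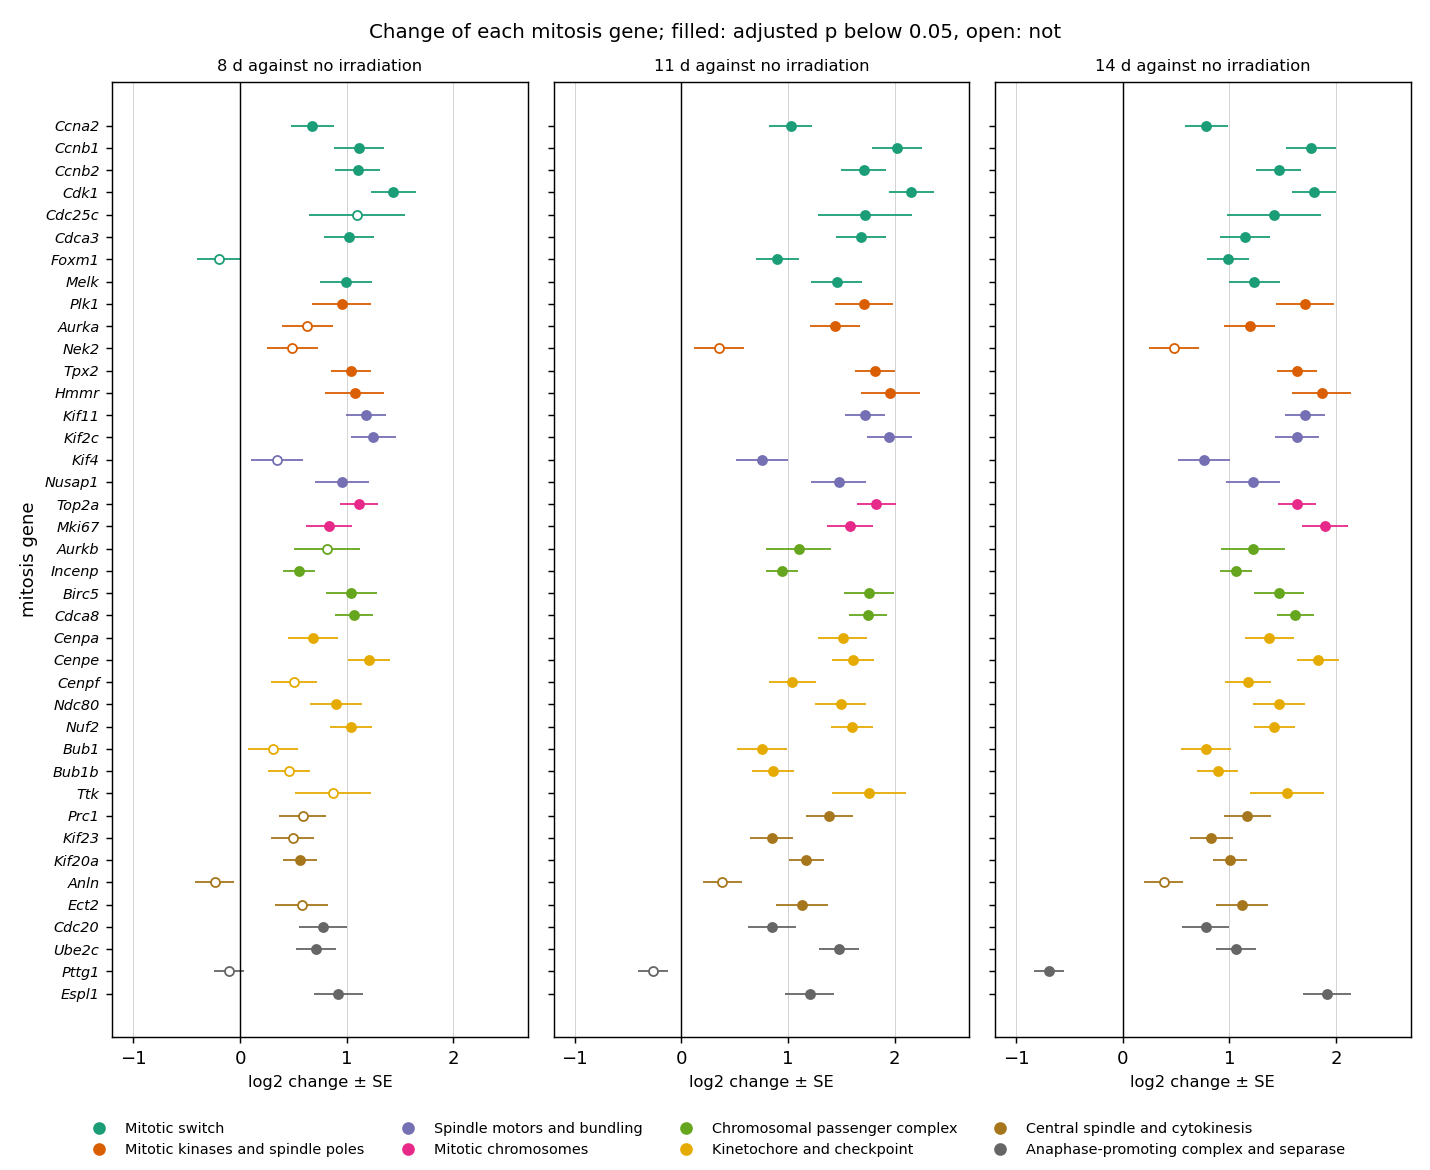
Log2 change of each of the 40 mitosis genes at 8, 11 and 14 d against unirradiated lung, ordered by role; points are edgeR estimates, filled where called and open where not, and bars are standard errors. Nearly all points lie right of 0, the 8 d points lie mostly nearest to it, and Pttg1 lies left of 0 at every time.

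The 8 d count rested in part on 1 unirradiated library. Without unirradiated replicate 2, the lowest unirradiated library for 25 of the 40 genes, 15 genes were called higher at 8 d in place of 25. Of all genes tested 2139 were called higher at 8 d, and 1507 to 2178 with 1 library left out. Calls are thus fewer over all genes too in some of these smaller fits. Calls lost there were those of Ccna2, Plk1, Hmmr, Nusap1, Mki67, Incenp, Cenpa, Ndc80, Kif20a and Cdc20, with log2 changes that stayed between 0.40 and 0.94. Called at 11 and 14 d and not at 8 d were 12 genes: Cdc25c, Foxm1, Aurka, Kif4, Aurkb, Cenpf, Bub1, Bub1b, Ttk, Prc1, Kif23 and Ect2. The 8 d log2 change of 11 of them was above 0, and that of Foxm1 was -0.20. Nek2 and Anln were called at none of the 3 times, and Pttg1 only at 14 d, where it fell.

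The promoters of the mitosis genes shared sequence features that the choice of genes did not use. Late cell cycle genes are known for a short element near the start of transcription, the cell cycle genes homology region, written TTTGAA or TTTAAA, and for upstream CCAAT boxes bound by the factor NF-Y. RefSeq promoters of build GRCm38.p6, 250 bases before to 50 bases after the start, were matched for 33 of the 40 genes. Both strands were searched, on which TTTGAA also reads TTCAAA and CCAAT also reads ATTGG. A homology region element was found in 27 of the 33 promoters (81.8%), in 27.6% of all 32851 promoters in the table and in 20.2% of the promoters of genes tested. Within 50 bases of the start it was found in 72.7% of the mitosis promoters and 8.28% of all promoters. At least 1 CCAAT box was present in 25 promoters (75.8%, against 37.4% of all), and at least 2 in 18 (54.5%, against 11.7%). Both kinds of element stood in 23 promoters (69.7%, against 10.7%). The 4 promoters with neither were those of Nuf2, Nusap1, Melk and Pttg1. Pttg1 was the mitosis gene that fell, while the other 3 rose, and a link between these letters and the direction of change was not tested. Of the 150 bases before the RefSeq start of Pttg1, 137 are exonic in GENCODE M21, so that window does not lie upstream of every annotated start. The same limit holds for the elements printed below for Cdk1, Ccnb1, Espl1 and Ube2c. They lie before the RefSeq start but inside the gene as annotated in GENCODE M21. A match to these letters is a description of the sequence and not evidence of a bound site. The promoters of Top2a, Mki67 and Kif11 are printed because Top2a and Mki67 have the highest CPM of the members, Kif11 was called at all 3 times, and their last 150 bases before the start hold no annotated exon. Shorter stretches of 30 bases around the start-proximal element are printed for Cdk1, Ccnb1, Espl1, Cdc20 and Ube2c, which span the entry into and the exit from mitosis. Each is written 5′ to 3′ on the strand of its gene, with the elements in capitals.
Top2a, chr11:99024190-99024339, minus strand: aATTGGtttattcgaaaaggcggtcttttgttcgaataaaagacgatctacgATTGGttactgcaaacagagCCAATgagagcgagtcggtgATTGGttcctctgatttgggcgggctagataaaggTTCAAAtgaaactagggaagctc
Mki67, chr7:135716380-135716529, minus strand: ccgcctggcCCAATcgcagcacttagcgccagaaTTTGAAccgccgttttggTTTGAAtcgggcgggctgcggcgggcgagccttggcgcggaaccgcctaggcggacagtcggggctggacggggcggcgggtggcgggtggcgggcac
Kif11, chr19:37376232-37376381, plus strand: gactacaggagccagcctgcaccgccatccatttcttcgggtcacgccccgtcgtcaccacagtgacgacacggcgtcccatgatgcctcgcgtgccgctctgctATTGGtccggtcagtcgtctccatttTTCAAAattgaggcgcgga
Cdk1, chr10:69352919-69352948, minus strand: cgggagctttaccgcggcgagTTTGAAact
Ccnb1, chr13:100786520-100786549, minus strand: tgaggagcgagcggcccggggTTTAAAcct
Espl1, chr15:102296245-102296274, plus strand: gctgATTGGtcactagggataTTTGAAagg
Cdc20, chr4:118437353-118437382, minus strand: cgacggttaagacagttgggtTTTGAAgga
Ube2c, chr2:164769879-164769908, plus strand: agcgcagcgggagggttgcaaTTCAAAcgc

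**Figure D2:**
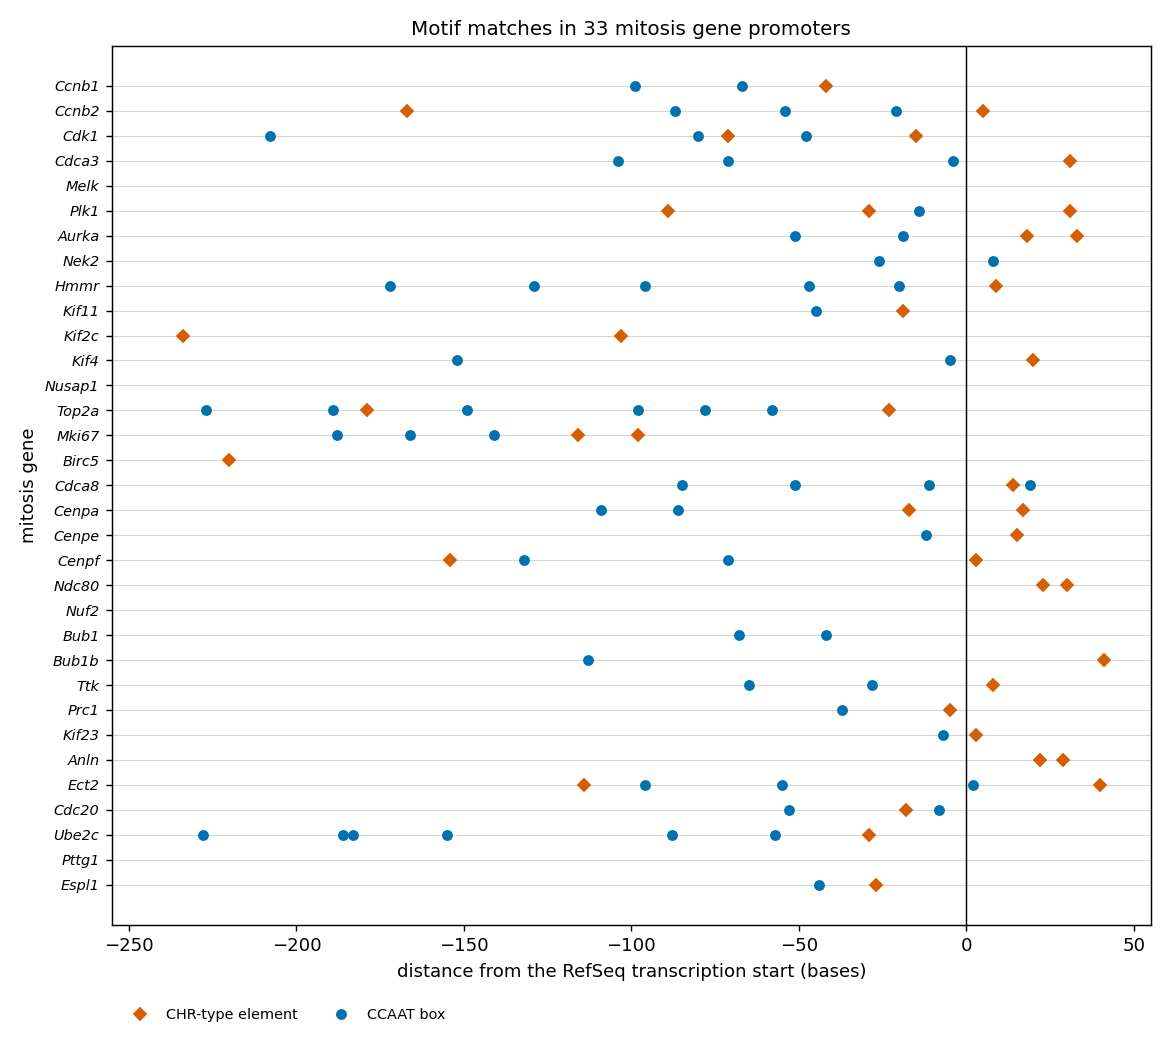
Positions of the homology region elements (CHR-type, diamonds) and CCAAT boxes (circles) in the promoters of 33 mitosis genes, 1 row per gene, as distance in bases from the RefSeq transcription start. Diamonds crowd within 50 bases of the start, where 72.7% of these promoters hold at least 1, most circles lie upstream of it, and the rows of Melk, Nusap1, Nuf2 and Pttg1 are empty.

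Of the 8 genes of the mitotic switch 6 were called higher at 8 d, all but Cdc25c and Foxm1, and all 8 at 11 and 14 d (median log2 changes 1.06, 1.70 and 1.32). Cdk1, the kinase that drives entry into mitosis (mm10 chromosome 10, 69335146 to 69352938), stood at 3.20, 5.09 and 4.48 CPM in the unirradiated libraries. It stood at 9.93, 13.2 and 11.5 CPM at 8 d, at 23.7, 17.7 and 15.6 CPM at 11 d, and at 13.6, 13.4 and 17.3 CPM at 14 d. The groups before and after irradiation did not overlap, and the lowest 11 d library exceeded the highest 8 d library. Cdk1 had the largest log2 change of the 40 genes at 8 d, 1.44 (SE 0.21, edgeR adjusted p = 0.000244), and at 11 d, 2.16 (SE 0.21, edgeR adjusted p = 4.8e-06), and stood at 1.79 at 14 d. Ccna2, cyclin A2, partner of Cdk kinases in S phase and at mitotic entry, had the highest CPM of these 8 genes. Its level was 16.9, 16.6 and 21.3 CPM without irradiation, 22.3, 39.8 and 25.5 CPM at 8 d, 38.7, 34.9 and 37.8 CPM at 11 d, and 29.8, 26.6 and 38.0 CPM at 14 d. The 8 d libraries of Ccna2 spread widely around replicate 2. Its log2 changes were 0.68, 1.02 and 0.78, and the 8 d call was lost without 8 d replicate 2 (0.39, edgeR adjusted p = 0.124) and without unirradiated replicate 1 (adjusted p = 0.0951) or 2 (adjusted p = 0.0957). Ccna2 shares 12.5% of its exon length with Exosc9.

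Both B-type cyclins were called at all 3 times. Ccnb1, cyclin B1, rose from 2.0, 2.40 and 2.13 CPM to 4.87, 5.54 and 3.79 CPM at 8 d and to 12.05, 6.80 and 7.73 CPM at 11 d, and stood at 6.66, 7.35 and 8.18 CPM at 14 d. Its log2 changes were 1.12 (SE 0.24), 2.02 (SE 0.23) and 1.76 (SE 0.23). Ccnb2, cyclin B2, changed by 1.10, 1.71 and 1.46. Annotated pseudogenes exist for both, so their counts are uncertain where reads could be assigned to either copy. Cdca3, which promotes destruction of an inhibitor of mitotic entry, changed by 1.02, 1.68 and 1.15. Melk, a kinase of proliferating cells, changed by 0.99, 1.46 and 1.23. Cdc25c, the phosphatase that activates Cdk1, was the least abundant gene of all, with a lowest count of 10 reads in a library. Its log2 change of 1.10 at 8 d (SE 0.45, edgeR adjusted p = 0.0943) was not called, and those of 1.72 at 11 d and 1.41 at 14 d were. The 14 d call of Cdc25c was lost without unirradiated replicate 1 or 2 or 14 d replicate 1 or 3 (adjusted p from 0.0613 to 0.0731). Cdc25c shares 12.7% of its exon length with Gm3550.

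Foxm1, the transcription factor that drives many late cell cycle genes, kept a course of its own. It stood at 3.47, 2.95 and 2.67 CPM without irradiation and at 3.19, 2.03 and 2.71 CPM at 8 d. At 11 d it stood at 5.58, 5.34 and 6.07 CPM and at 14 d at 6.57, 6.37 and 5.09 CPM. The 8 d libraries overlapped the unirradiated libraries, and all 11 and 14 d libraries lay above both groups. The 8 d log2 change was -0.20 (SE 0.21, edgeR adjusted p = 0.539), and the rises at 11 d, 0.90 (SE 0.20), and at 14 d, 0.99 (SE 0.20), were called. At 8 d, 25 other mitosis genes were thus called higher while Foxm1 was not. The step from 8 to 11 d was itself called for Foxm1, 1.10 (SE 0.21, edgeR adjusted p = 0.0179), although not without 8 d replicate 3 (1.12, adjusted p = 0.104) or 11 d replicate 1 (1.11, adjusted p = 0.0828).

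**Figure D3:**
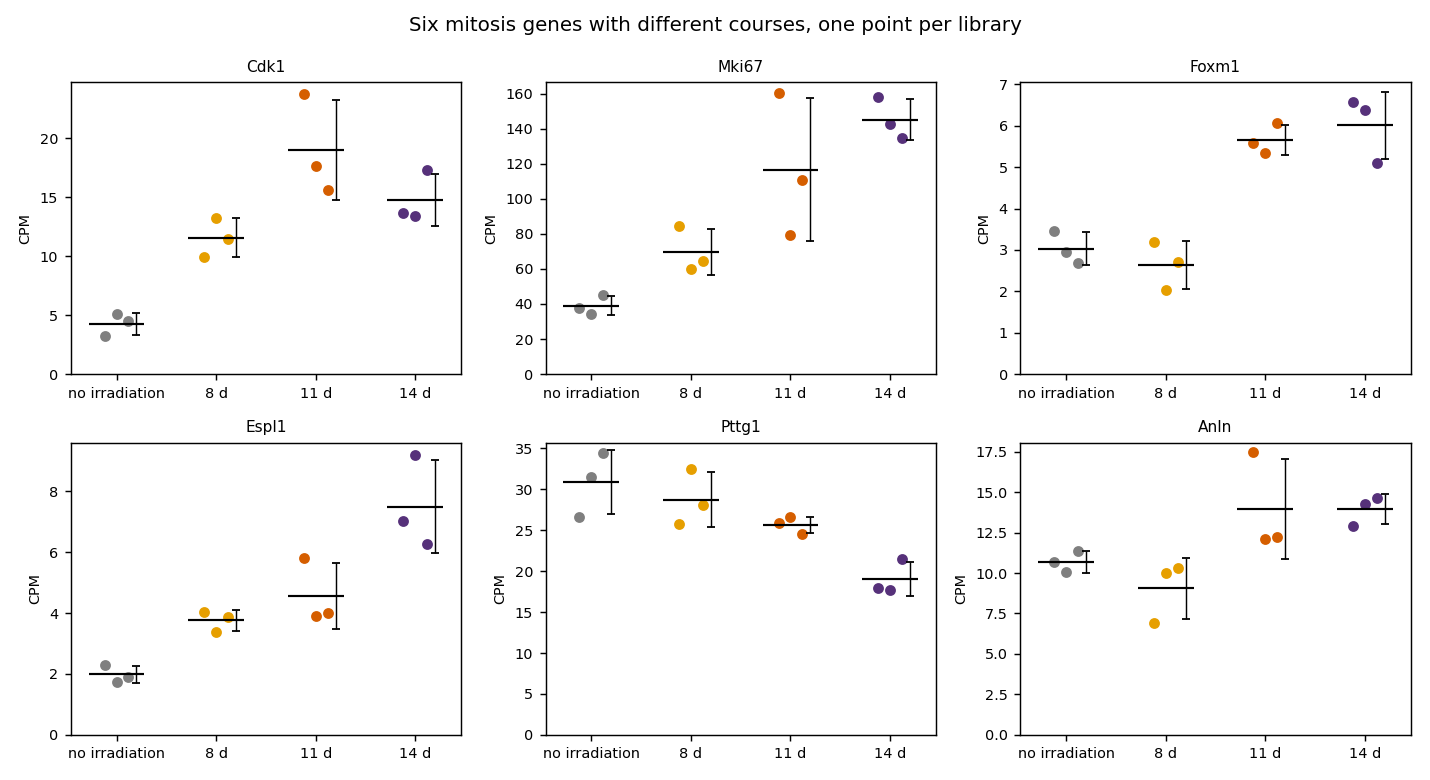
CPM of 6 mitosis genes in every library of the 4 groups; points are libraries, horizontal lines are group means and error bars are SD over 3 libraries. Cdk1 is highest at 11 d, Mki67 and Espl1 are highest at 14 d, Foxm1 is raised at 11 and 14 d only, and Pttg1 is lowest at 14 d. Anln overlaps its unirradiated libraries at 8 d and lies a little above them at 11 and 14 d, where it was not called.

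Among the 5 mitotic kinases and spindle pole genes, 3 were called higher at 8 d and 4 at 11 and 14 d (medians 0.95, 1.72 and 1.64). Tpx2, which activates Aurora A and nucleates spindle microtubules, stood at 10.7, 6.86 and 10.3 CPM without irradiation. It stood at 19.8, 19.8 and 18.0 CPM at 8 d, at 40.3, 25.9 and 32.3 CPM at 11 d and at 26.5, 28.8 and 31.6 CPM at 14 d. No 2 of the unirradiated, 8 d and 11 d groups of Tpx2 overlapped. Its log2 changes were 1.04 (SE 0.19), 1.82 (SE 0.19) and 1.64 (SE 0.19). Hmmr, a spindle and hyaluronan-binding protein, stood at 4.75, 2.88 and 6.58 CPM without irradiation, at 11.8, 9.23 and 9.0 CPM at 8 d, at 25.1, 15.5 and 14.6 CPM at 11 d and at 17.0, 14.6 and 20.3 CPM at 14 d. All irradiated libraries of Hmmr exceeded all unirradiated ones, with log2 changes of 1.08, 1.96 and 1.87, and the 8 d call was lost without unirradiated replicate 2 (0.82, edgeR adjusted p = 0.0509). Plk1, the Polo-like kinase of mitotic entry and exit, changed by 0.95, 1.72 and 1.71. Its 8 d call was lost without unirradiated replicate 2 or 3 or 8 d replicate 1 and under limma-voom (adjusted p from 0.0513 to 0.0868). Aurka, Aurora A, changed by 0.63 at 8 d (SE 0.24, edgeR adjusted p = 0.0717), which was not called except without unirradiated replicate 1 (0.83, adjusted p = 0.0472), and by 1.44 and 1.19 at 11 and 14 d, which were called.

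Nek2, a kinase that separates centrosomes, was not called at any time. It stood at 4.71, 6.46 and 9.40 CPM without irradiation, at 8.62, 8.42 and 11.9 CPM at 8 d, at 9.68, 6.61 and 10.01 CPM at 11 d and at 9.40, 9.73 and 9.60 CPM at 14 d. Unirradiated replicate 3 lay inside the range of the irradiated libraries. The log2 changes were 0.49 (SE 0.24), 0.35 (SE 0.24) and 0.48 (SE 0.24), with edgeR adjusted p of 0.154, 0.261 and 0.125. Without unirradiated replicate 3 all 3 were called, at 0.78, 0.65 and 0.78 (adjusted p = 0.0282, 0.0449 and 0.0175).

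The 4 spindle motor and bundling genes gave 3 calls at 8 d and 4 at both later times (medians 1.07, 1.60 and 1.43). Kif11, the kinesin that pushes spindle poles apart (mm10 chromosome 19, 37376403 to 37421859), stood at 7.08, 6.53 and 9.97 CPM without irradiation and at 17.1, 19.3 and 17.0 CPM at 8 d. It stood at 30.3, 19.7 and 27.7 CPM at 11 d and at 26.8, 23.8 and 26.8 CPM at 14 d. Each 8 d library of Kif11 was below every library of the later groups and above every unirradiated one. Its log2 changes were 1.18 (SE 0.19), 1.72 (SE 0.19) and 1.71 (SE 0.19). Nusap1, which bundles spindle microtubules, stood at 9.68, 6.20 and 13.9 CPM without irradiation, at 21.4, 20.0 and 16.6 CPM at 8 d, at 34.4, 23.3 and 25.2 CPM at 11 d and at 23.4, 18.2 and 27.9 CPM at 14 d. Its irradiated groups overlapped in part, all above the unirradiated libraries, with changes of 0.96, 1.48 and 1.22, and its 8 d call was lost without unirradiated replicate 1 or 2 (adjusted p = 0.0508 and 0.0573). Kif2c, a kinesin that shortens microtubules at kinetochores, changed by 1.25, 1.95 and 1.63. Kif4, a chromosome-bound kinesin, changed by 0.35, 0.76 and 0.76. An annotated pseudogene exists for Kif4 too, and the gene shares 15.1% of its exon length with Pdzd11. Kif4 was not called at 8 d (edgeR adjusted p = 0.332), and both later calls were lost without unirradiated replicate 1 or 2, the 11 d call also without 11 d replicate 1 and the 14 d call without 14 d replicate 1 or 3 (adjusted p from 0.0534 to 0.153).

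Both mitotic chromosome genes were called at all 3 times and carried a growing part of the summed signal. Top2a, the topoisomerase that untangles chromatids (mm10 chromosome 11, 98992943 to 99024189), stood at 26.0, 23.8 and 31.1 CPM without irradiation. It stood at 68.8, 55.9 and 51.3 CPM at 8 d, at 121, 77.9 and 88.9 CPM at 11 d and at 91.3, 71.96 and 88.7 CPM at 14 d. All later libraries of Top2a exceeded all 8 d libraries, which exceeded all unirradiated ones. Mki67, which coats mitotic chromosomes and encodes the Ki-67 antigen (mm10 chromosome 7, 135689784 to 135716361), stood at 37.6, 34.3 and 44.8 CPM without irradiation and at 84.3, 59.9 and 64.4 CPM at 8 d. It stood at 160, 79.3 and 111 CPM at 11 d and at 158, 143 and 135 CPM at 14 d. The 11 d libraries of Mki67 spread over a range that overlapped both neighbouring groups, while 14 d lay above 8 d without overlap. The log2 changes of Mki67 were 0.84 (SE 0.21), 1.58 (SE 0.22) and 1.90 (SE 0.22), those of Top2a 1.12 (SE 0.18), 1.83 (SE 0.18) and 1.64 (SE 0.18). The 8 d call of Mki67 was lost without unirradiated replicate 2 (0.75, edgeR adjusted p = 0.0548). Without irradiation these genes together made up 21.1% of the summed CPM of the 40 genes, a share of 24.5% by 8 d, 27.4% by 11 d and 30.4% by 14 d.

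The chromosomal passenger complex, which corrects faulty spindle attachments and then moves to the cell middle, gave 3 calls of 4 at 8 d and 4 of 4 at 11 and 14 d (medians 0.93, 1.42 and 1.35). Incenp, its scaffold, stood at 19.3, 13.1 and 18.0 CPM without irradiation, at 25.4, 23.2 and 25.5 CPM at 8 d, at 33.6, 33.5 and 29.9 CPM at 11 d and at 37.4, 36.1 and 31.9 CPM at 14 d. Its means rose at every step, with log2 changes of 0.55, 0.94 and 1.06, and the 8 d call was lost without unirradiated replicate 2 (0.40, edgeR adjusted p = 0.0639). Birc5, survivin, stood at 4.45, 3.39 and 5.89 CPM without irradiation, at 7.96, 12.1 and 8.34 CPM at 8 d, at 17.7, 13.3 and 15.6 CPM at 11 d and at 10.3, 11.7 and 16.0 CPM at 14 d. The 11 d libraries of Birc5 lay above all 8 d libraries, and the 14 d libraries overlapped both. Its changes were 1.05, 1.76 and 1.47. Cdca8, borealin, changed by 1.07, 1.75 and 1.62. Aurkb, the Aurora B kinase of the complex, changed by 0.82 at 8 d (SE 0.31, edgeR adjusted p = 0.0706), not called, and by 1.10 and 1.22 later, both called. The 8 d change of Aurkb was called by DESeq2 (adjusted p = 0.0431), by limma-voom (adjusted p = 0.0415) and without unirradiated replicate 3 (1.28, adjusted p = 0.00541), and the 11 d call was lost without 11 d replicate 1 (0.90, adjusted p = 0.0649).

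**Figure D4:**
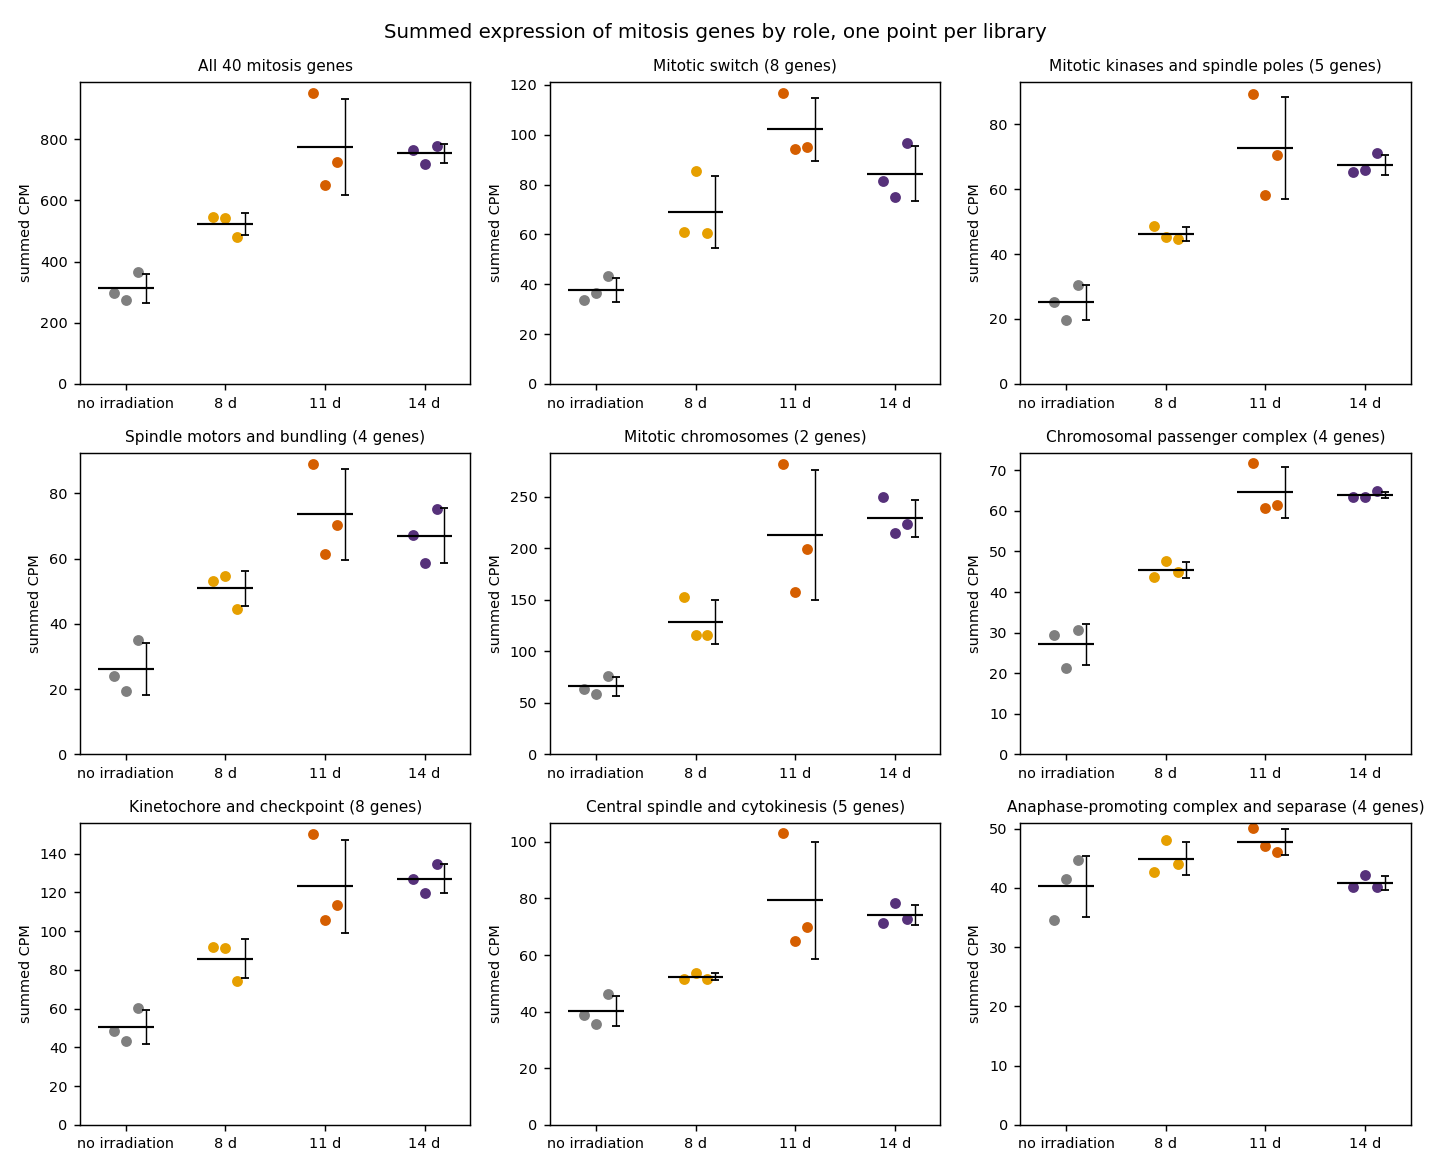
Summed CPM of the mitosis genes of each role in every library of the 4 groups; points are libraries, lines are means and error bars are SD over 3 libraries. In 7 of the 8 roles all irradiated libraries exceed all unirradiated ones, and in the set of the anaphase-promoting complex and separase the groups overlap.

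Of the 8 kinetochore and checkpoint genes, 4 were called at 8 d and all 8 at 11 and 14 d (medians 0.78, 1.5 and 1.4). Cenpe, the kinetochore motor, stood at 8.67, 7.31 and 11.6 CPM without irradiation, at 24.6, 21.4 and 17.9 CPM at 8 d, at 34.1, 21.4 and 28.4 CPM at 11 d and at 32.9, 33.2 and 32.0 CPM at 14 d. The 14 d libraries lay close together, above all 8 d libraries, and its log2 changes were 1.21, 1.61 and 1.83. Cenpf, a large kinetochore and nuclear envelope protein, stood at 10.5, 9.26 and 13.7 CPM without irradiation, at 19.4, 16.0 and 12.2 CPM at 8 d, at 29.9, 17.2 and 21.7 CPM at 11 d and at 26.9, 24.6 and 23.9 CPM at 14 d. Its 8 d range overlapped the unirradiated one, and the 8 d change of 0.51 (SE 0.22, edgeR adjusted p = 0.109) was not called, while those of 1.04 and 1.17 were. Ndc80 and Nuf2, subunits of the complex that binds microtubules, changed by 0.90, 1.49 and 1.47 and by 1.04, 1.60 and 1.42. The 8 d call of Ndc80 was lost without unirradiated replicate 1 or 2 or 8 d replicate 2 (adjusted p from 0.0568 to 0.0762). Cenpa, the histone H3 variant of centromeres, changed by 0.68, 1.51 and 1.37, with an 8 d edgeR adjusted p of 0.0467 that passed 0.05 under 4 other settings of the fit and on leaving out any of 7 libraries (up to 0.177).

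None of the 3 checkpoint kinases was called at 8 d. Bub1b, encoding BubR1, which restrains the anaphase-promoting complex, changed by 0.46 at 8 d (SE 0.19, edgeR adjusted p = 0.104) and by 0.86 and 0.89 later. Bub1, its partner at kinetochores, changed by 0.31 at 8 d (SE 0.23, edgeR adjusted p = 0.386) and by 0.76 and 0.78 later. Ttk, the kinase at the head of the checkpoint, changed by 0.87 at 8 d (SE 0.36, edgeR adjusted p = 0.0935) and by 1.76 and 1.54 later. All 6 of the later changes were called. The 8 d call of Bub1b appeared without 8 d replicate 2 (0.60, adjusted p = 0.0472), and both calls of Bub1 were lost without unirradiated replicate 1 (adjusted p = 0.0771 and 0.0606). The 11 d call of Bub1 was also lost without 11 d replicate 1 (adjusted p = 0.0718), and its 14 d call without 14 d replicate 1 (adjusted p = 0.0523).

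The 5 genes of the central spindle and cytokinesis had the lowest median of the 8 roles at 8 d, when 1 of 5 was called, and 4 of 5 were called at each later time (medians 0.56, 1.13 and 1.01). Prc1, which cross-links the central spindle, stood at 9.12, 8.23 and 11.2 CPM without irradiation, at 16.7, 13.7 and 12.5 CPM at 8 d, at 35.7, 18.7 and 20.1 CPM at 11 d and at 21.6, 21.1 and 21.5 CPM at 14 d. Its groups before and after irradiation did not overlap, yet the 8 d change of 0.59 (SE 0.22, edgeR adjusted p = 0.0694) was not called, except with scaling by library size alone (adjusted p = 0.0488), in a fit of only the groups compared (adjusted p = 0.0404) and without 11 d replicate 1 (adjusted p = 0.0135). The later changes of Prc1, 1.39 and 1.17, were called. Prc1 shares 11.1% of its exon length with Rccd1. Kif23, the motor of the centralspindlin complex, stood at 8.25, 7.86 and 10.9 CPM without irradiation, at 12.5, 13.8 and 11.8 CPM at 8 d, at 20.6, 15.0 and 12.9 CPM at 11 d and at 15.6, 19.4 and 13.1 CPM at 14 d. All irradiated libraries of Kif23 exceeded all unirradiated ones by a small margin, with changes of 0.49 (edgeR adjusted p = 0.0919, not called), 0.85 and 0.83. Kif20a, a motor of the cleavage zone, changed by 0.56, 1.17 and 1.01, all called, and shares 29.3% of its exon length with Cdc23 on the other strand. The 8 d call of Kif20a was lost without unirradiated replicate 1 or 2 or 8 d replicate 1 or 3 (adjusted p from 0.0594 to 0.0819). Ect2, which activates RhoA at the cleavage furrow, changed by 0.58 (edgeR adjusted p = 0.107, not called), 1.13 and 1.12.

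Anln, anillin, a scaffold of the contractile ring, was called against unirradiated lung at none of the times. It stood at 10.7, 10.04 and 11.4 CPM without irradiation, at 6.89, 10 and 10.3 CPM at 8 d, at 17.5, 12.1 and 12.2 CPM at 11 d and at 12.9, 14.3 and 14.6 CPM at 14 d. The later libraries lay above all unirradiated ones, and the 8 d libraries overlapped them from below. Its log2 change of -0.24 at 8 d (SE 0.18, edgeR adjusted p = 0.385) was the lowest of the 40 genes, and at 11 and 14 d it was 0.38 (SE 0.18, edgeR adjusted p = 0.109) and 0.38 (SE 0.18, adjusted p = 0.11).

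The 4 genes of the anaphase-promoting complex and separase held the extremes of the 14 d comparison. Ube2c, the ubiquitin-conjugating enzyme of the complex, stood at 2.90, 4.87 and 4.84 CPM without irradiation, at 6.18, 7.16 and 7.34 CPM at 8 d, at 12.5, 10.8 and 11.8 CPM at 11 d and at 8.72, 8.94 and 8.64 CPM at 14 d. All 4 groups of Ube2c were free of overlap, with 11 d on top. Its changes were 0.71, 1.48 and 1.06, and the 8 d call was lost without unirradiated replicate 1 (0.50, edgeR adjusted p = 0.0524) and in a fit of only the groups compared (adjusted p = 0.0527). Ube2c shares 22.8% of its exon length with Tnnc2. Cdc20, the activator of the complex at anaphase, changed by 0.78, 0.85 and 0.78, all called. The 8 d call of Cdc20 was lost without unirradiated replicate 1 or 2 or 8 d replicate 1 (adjusted p from 0.0541 to 0.0891), and the 14 d call without unirradiated replicate 1 or 14 d replicate 1 or 2 (adjusted p from 0.0505 to 0.0597).

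Separase and its inhibitor were called in opposite directions at 14 d. Espl1, separase, the protease that cuts the ring around sister chromatids (mm10 chromosome 15, 102296266 to 102324357), stood at 2.30, 1.73 and 1.92 CPM without irradiation and at 4.03, 3.38 and 3.88 CPM at 8 d. It stood at 5.79, 3.89 and 3.99 CPM at 11 d and at 7.02, 9.20 and 6.26 CPM at 14 d. The 14 d libraries of Espl1 lay above those of every other group. Its log2 changes were 0.92 (SE 0.23), 1.2 (SE 0.23) and 1.92 (SE 0.22, edgeR adjusted p = 1.12e-05), the last the largest of the 40 genes at 14 d. Pttg1, securin, which holds separase inactive until anaphase (mm10 chromosome 11, 43420250 to 43426251), stood at 26.7, 31.5 and 34.4 CPM without irradiation and at 25.8, 32.5 and 28.05 CPM at 8 d. It stood at 25.9, 26.6 and 24.6 CPM at 11 d and at 18.0, 17.7 and 21.5 CPM at 14 d. Pttg1 lay below all unirradiated libraries at 11 and 14 d, with log2 changes of -0.10 (SE 0.14, edgeR adjusted p = 0.642), -0.27 (SE 0.14, adjusted p = 0.148) and -0.70 (SE 0.14, adjusted p = 0.00112). It was the only mitosis gene called lower against unirradiated lung, in each of the 21 alternative fits tried. The ratio of Pttg1 to Espl1 CPM, a pair chosen after its values were seen, was 11.6, 18.2 and 18.0 without irradiation, 6.40, 9.61 and 7.24 at 8 d, 4.47, 6.83 and 6.16 at 11 d and 2.56, 1.92 and 3.43 at 14 d. The ratio was lower in every irradiated library than in every unirradiated one, and lowest in the 3 libraries of 14 d.

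Plain CPM also depends on the length of a gene, and levels of different genes are set side by side here as CPM per kilobase of annotated exon. On that scale Pttg1 had the highest level of the mitosis genes without irradiation, 15.4 against 4.47 for Ccna2, 3.89 for Incenp, 3.87 for Mki67 and 2.996 for Top2a. At 14 d Mki67 came first with a level of 14.4, followed by Pttg1 with 9.53 and Top2a with 9.32. In plain CPM 22 of the 40 genes had an unirradiated mean below 5.

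Between the irradiated times, few single genes were called. From 8 to 11 d 3 mitosis genes were higher and 0 lower, against 1.75% and 0.394% of all genes tested: Foxm1, Tpx2 (0.78, SE 0.18, edgeR adjusted p = 0.043) and Ube2c (0.76, SE 0.18, adjusted p = 0.0464). Of 21 alternative fits, 18 kept the call of Foxm1, 11 that of Tpx2 and 8 that of Ube2c. Mean CPM was higher at 11 d than at 8 d for 38 of the 40 genes and the median log2 difference was 0.61, with 26 genes at an unadjusted p under 0.05. Of the 16484 genes tested, 8012 had a log2 difference above 0 and 2600 had such a p, with a median difference of -0.01. For 23 genes all 11 d libraries lay above all 8 d libraries, as for 9.57% of all genes. The number called rested on single libraries. It was 0 without 8 d replicate 3 or 11 d replicate 1, 1 without 8 d replicate 1, 11 d replicate 3 or 14 d replicate 1 or 2, 5 without unirradiated replicate 3, 6 without 8 d replicate 2 and 8 without 11 d replicate 2. It was 15 with DESeq2, and 0 in a fit of the 8 and 11 d libraries alone.

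From 11 to 14 d no mitosis gene was called in either direction by edgeR, against 0.813% of all genes higher and 0.983% lower. At an unadjusted p under 0.05 there were 4 of the 40, against 2681 of the 16484 genes tested. By limma-voom 0 mitosis genes were called, and DESeq2 called 1, Espl1 (0.72, adjusted p = 0.0443). Mean CPM was lower at 14 d than at 11 d for 29 of the 40 genes, with a median log2 difference of -0.13, which turned to 0.04 without 11 d replicate 1. A log2 difference above 0 was found for 11 of the 40 and for 8051 of the 16484 genes tested, whose median was -0.01. For 4 genes, Ccnb2, Cdca3, Ube2c and Pttg1, all 14 d libraries lay below all 11 d libraries, as for 11.7% of all genes. For Espl1 they lay above, as for 9.96%. The largest difference was that of Espl1, 0.71 (SE 0.21, edgeR adjusted p = 0.11), called without 11 d replicate 1 (0.93, adjusted p = 0.038), and the lowest that of Cdca3, -0.54 (SE 0.22, adjusted p = 0.246). The highest group mean was that of 11 d for 28 genes, as for 20.0% of all genes, and that of 14 d for 10, as for 26.3%. It was that of 8 d for Nek2 and that of unirradiated lung for Pttg1, as for 17.2% and 36.5% of all genes. A difference of any kind among the 4 groups was called for 38 of the 40 genes, against 39.2% of all genes.

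From 8 to 14 d 8 mitosis genes were higher and 1 lower, against 8.10% and 7.29% of all genes. The higher genes were Foxm1 (1.19, SE 0.21, edgeR adjusted p = 0.00152), Mki67 (1.06, SE 0.21, adjusted p = 0.0038), Espl1 (0.99, SE 0.22, adjusted p = 0.0063), Anln, Cenpe, Tpx2, Cdca8 and Incenp, the last 5 between 0.51 and 0.62. The lower gene was Pttg1 (-0.59, SE 0.14, edgeR adjusted p = 0.0103), a call lost without 14 d replicate 1 (-0.55, adjusted p = 0.0568). Foxm1, Mki67 and Espl1 were called in each of the 21 alternative fits. The number higher was 3 without 14 d replicate 1, 4 without 8 d replicate 3, 5 without 11 d replicate 3, 14 d replicate 2 or 14 d replicate 3, and 14 without 11 d replicate 1. It was 3 with scaling by library size alone and 15 with DESeq2.

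Other genes of the same machinery, 81 of them and none among the 40, were also more often called higher than lower. At 8 d 38 were called higher and 2 lower, at 11 d 58 and 3, and at 14 d 59 and 4, with median log2 changes of 0.65, 1.15 and 1.07. The 4 of them with the highest plain CPM, a choice that favours long genes, are given first. Tubb5, a beta-tubulin, changed by 0.18, 0.35 and 0.25, of which the 11 d value was called (SE 0.11, edgeR adjusted p = 0.0214). Smc4, a condensin subunit, changed by -0.05, 0.19 and 0.35, and Anapc1, a scaffold of the anaphase-promoting complex, by -0.18, -0.34 and -0.09, none called. Stmn1, which destabilises microtubules, fell from 132 ± 12.1 CPM to 90.1 ± 15.0 at 8 d, 101 ± 5.05 at 11 d and 82.9 ± 5.98 at 14 d (SD, n = 3; log2 changes -0.54, -0.38 and -0.67, all called). The other genes called lower included both kinases that hold Cdk1 inactive by phosphorylating it. Wee1 changed by -0.69, -0.47 and -0.39, all called, and Pkmyt1 by -0.36 at 8 d, not called, and by -0.56 and -0.88 later, both called. Anapc11, the RING subunit of the anaphase-promoting complex, fell only at 14 d, by 0.50 on the log2 scale. Chosen after the values were seen, Gtse1, a G2- and S-phase protein that restrains p53, and Ckap2, a spindle protein, changed most at 8 d. Gtse1 went from 1.16 ± 0.286 CPM to 15.3 ± 0.2 at 8 d, 11.8 ± 2.34 at 11 d and 10.1 ± 1.19 at 14 d (SD, n = 3), a log2 change of 3.72 at 8 d (SE 0.21, edgeR adjusted p = 1.65e-07). Ckap2 went from 2.44 ± 0.577 CPM to 14.3 ± 3.0, 12.5 ± 1.27 and 11.5 ± 3.80. Unlike 28 of the 40 mitosis genes, both had their highest mean at 8 d.

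Genes of earlier cell cycle steps were counted in the same way, against the shares of all genes given above, and their lists were not compared with the mitosis genes by a test. Of 33 DNA replication genes 15, 24 and 18 were called higher at 8, 11 and 14 d and 0 lower, with medians of 0.43, 0.69 and 0.51. Pcna, the sliding clamp, changed by 0.17, 0.58 and 0.22 with the 11 d value called, Rrm1, a ribonucleotide reductase subunit, by 0.77, 0.88 and 0.70, and Mcm3, a helicase subunit, by 0.52, 0.66 and 0.57, all called. No replication gene was called lower by edgeR, and of the 33 none had a log2 change below 0 at any time against unirradiated lung. Of 16 G1 cyclins, kinases and E2F factors 9 rose and 2 fell at 8 d, and 8 rose and 2 fell at 11 and 14 d. Ccnd1, cyclin D1, rose from 114 ± 11.5 CPM to 316 ± 31.4 at 8 d and then stood at 241 ± 22.3 and 173 ± 12.1 CPM (SD, n = 3), with log2 changes of 1.46, 1.07 and 0.59. Ccnd2 changed by 0.79, 0.57 and 0.44, all called, and Ccnd3 by 0.41, called, and by 0.31 and 0.07, not called. The genes called lower were the activating factors E2f1 (-0.53, -0.63 and -0.64) and E2f2 (-0.45, -0.43 and -0.57).

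Genes of CDK inhibitors, pocket proteins and the MuvB complex were called in both directions, in numbers near the shares of all genes at 8 and 11 d. The MuvB complex takes part in the repression of late cell cycle genes in resting cells. Of the 17 genes 2 rose and 2 fell at 8 d (13% and 10.6% of all genes) and 2 rose and 3 fell at 11 d (19.4% and 17.8%). At 14 d 5 rose and 3 fell (20.0% and 18.9%). Cdkn1a, encoding the p21 inhibitor of Cdk kinases, stood at 24.8 ± 4.86 CPM without irradiation and at 287 ± 6.22, 208 ± 46.3 and 156 ± 13.3 CPM at 8, 11 and 14 d (SD, n = 3). Its log2 changes of 3.53, 3.07 and 2.66 were all called. The inhibitors Cdkn1b (-0.80, -0.75 and -0.82) and Cdkn1c (-0.98, -1.22 and -1.72) fell at all 3 times, and the MuvB subunit Lin52 fell at 11 d (-0.71) and 14 d (-1.07). Rbbp4 was not called at any time (-0.01, 0.05 and -0.08), and Rbl2 was called only at 14 d (0.31). Multiciliating airway cells re-use part of the mitotic machinery without dividing. Of 10 genes of that programme 0 were called at 8 d, 1 was higher and 1 lower at 11 d, and 1 was higher at 14 d. The higher gene was Plk4, the kinase of centriole duplication and also 1 of the 81 other mitosis genes (0.66 and 0.57), and the lower gene was Myb (-0.61 at 11 d).

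Markers of lung cell types moved in the same libraries, and their part in the change of the mitosis genes was not tested. The tissue label was met by abundant alveolar markers: 8 alveolar type 2 markers summed to 31569 to 35089 CPM without irradiation and to 16965 to 18947 CPM at 14 d. Of 10 macrophage markers 6 rose and 2 fell at 8 d, 8 rose at 11 d and all 10 rose at 14 d. Their sum ran from 435 to 525 CPM without irradiation, from 553 to 736 CPM by 8 d, from 1146 to 1984 CPM by 11 d and from 2126 to 2551 CPM by 14 d. Replicate 1 of 11 d, the library with the highest mitosis sum, had the highest 11 d sum of the macrophage, T cell, B cell and monocyte lists alike. Its endothelial and alveolar type 2 sums were the lowest of the 11 d group. Of 9 T cell markers 8, 9 and 8 rose, and their sum lay between 75.2 and 80.4 CPM without irradiation and between 155 and 191 CPM at 8 d. At 11 d it lay between 221 and 267 CPM and at 14 d between 174 and 291 CPM. Of 7 B cell markers all 7 rose at 8 d, 1 at 11 d and 0 at 14 d, with sums of 25.9 to 52.1, 77.0 to 100.4, 40.6 to 63.7 and 33.2 to 42.9 CPM. Of 6 monocyte markers 5 rose and 1, Chil3, fell at each time, with sums of 583 to 752, 372 to 525, 526 to 761 and 607 to 723 CPM. The median log2 change of the 6 was 1.49, 1.86 and 1.45, so the lower 8 d sum follows Chil3 and not the other markers. No marker of the macrophage, T cell, B cell or monocyte lists was at 0 in any library.

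**Figure D5:**
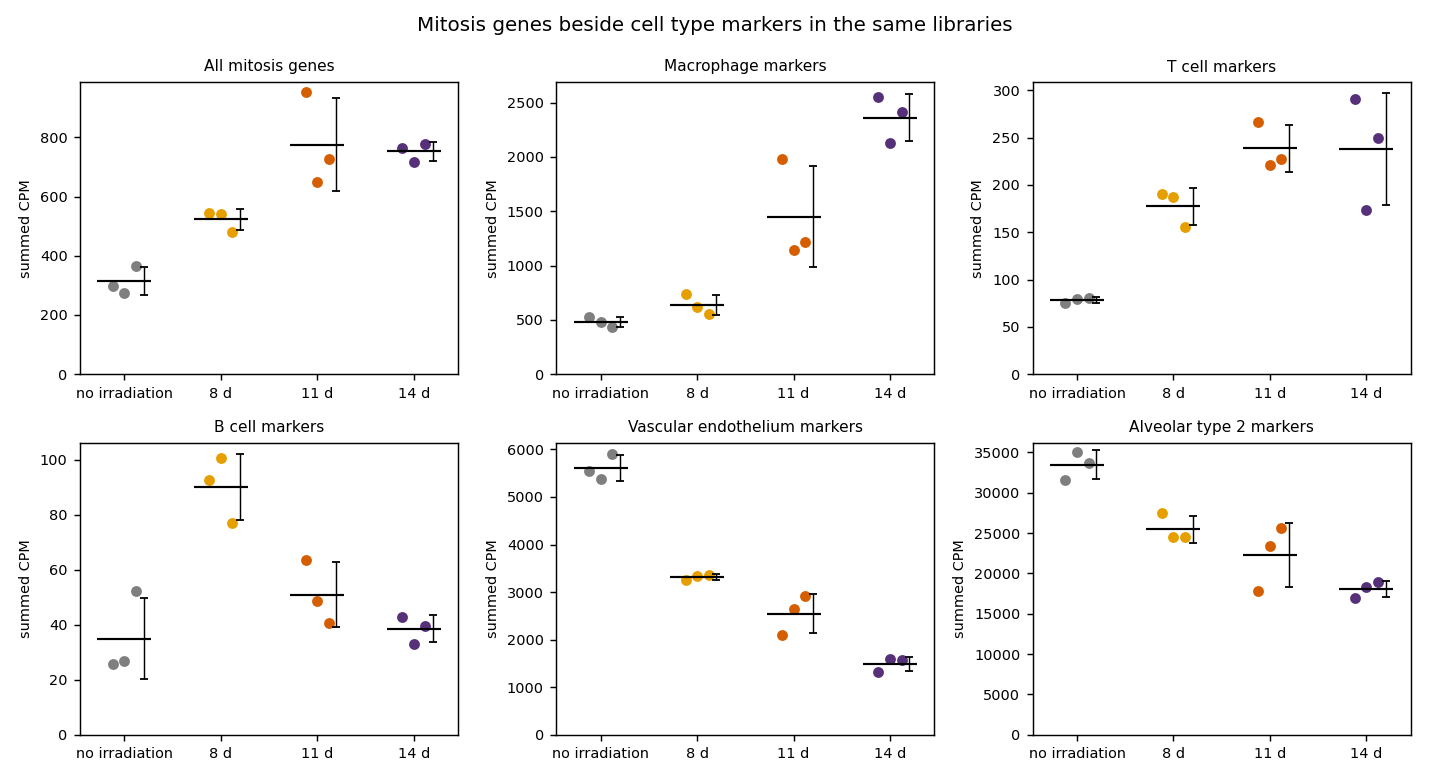
Summed CPM of the 40 mitosis genes and of markers of macrophages, T cells, B cells, endothelium and alveolar type 2 cells in every library; points are libraries, lines are means and error bars are SD over 3 libraries. The mitosis, macrophage and T cell sums are raised after irradiation, the B cell sum is highest at 8 d, and the endothelial and alveolar sums are lower after irradiation.

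Markers of the resident lung moved down or were mixed. Of 10 endothelial markers 5, 9 and 10 fell and 0 rose, with sums between 5377 and 5902 CPM without irradiation, between 3249 and 3367 CPM at 8 d, between 2100 and 2914 CPM at 11 d and between 1322 and 1599 CPM at 14 d. Of the 8 type 2 markers 2, 5 and 5 fell, with sums of 24509 to 27419 CPM at 8 d and 17870 to 25575 at 11 d. Of 7 alveolar type 1 markers 4, 5 and 6 fell and 1 rose at 11 d, with sums of 6498 to 7127, 4153 to 4697, 3349 to 4441 and 2689 to 3124 CPM. Of 8 fibroblast markers 2 rose at each time and 2, 3 and 3 fell, with sums of 1636 to 1768, 1285 to 1556, 1091 to 1316 and 1155 to 1381 CPM. Of 6 airway markers 2, 2 and 3 fell, with sums of 14006 to 25854, 10065 to 10384, 5541 to 9706 and 4604 to 7046 CPM. Markers of dividing blood precursors were uneven. Of 7 erythroid precursor markers, Klf1 had at most 5 and Car1 at most 4 counts in any library, both with libraries at 0, while Alas2 had 871 to 5838 and Tfrc 1626 to 2978 counts. Of the 5 that were tested 1 rose at 8 and 11 d and 3 fell at 14 d, with list sums of 207 to 312, 240 to 392, 222 to 305 and 108 to 153 CPM. Of 7 neutrophil precursor markers Elane had at most 3 and Mpo, Prtn3 and Ctsg at most 9 counts, each with libraries at 0, and the single gene tested, Ltf, rose at 11 and 14 d. That list summed to 4.48 to 15.1, 9.01 to 29.8, 18.6 to 31.1 and 13.9 to 30.4 CPM.

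Sequencing depth was highest in the unirradiated group. Total counts per library ran from 26164354 to 27765751 there, from 20792968 to 22660158 in the 8 d group, from 19624554 to 24502421 in the 11 d group and from 22615862 to 25524425 in the 14 d group. The raw counts on the 40 genes ran from 7461 in unirradiated replicate 2 to 22519 in 11 d replicate 1. Neither the counting program nor its strand setting was given in the sources used here. For the 13 mitosis genes that share exon bases with another annotated gene, reads of the neighbour on either strand can therefore not be told apart from their own.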

How the data were processed

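The values are the counts per gene symbol that the authors deposited for each of 12 lung libraries. TopHat and the build mm10 were used for the reads, per the submitters' processing notes. The TopHat version, counting program, annotation and strand setting were not given in the sources used here. Trizol extraction and the NEBNext Ultra II Directional library kit are named per the labels' protocols.

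Lines of the 35 symbols that occur more than once (79 of 23282 lines) were summed. The main test was edgeR's quasi-likelihood F test (edgeR 4.0.16, R 4.3.3), fitted to all 12 libraries with TMM scaling and the default expression filter, which removed 6754 symbols. Calls were made where the Benjamini-Hochberg adjusted p over all genes tested was below 0.05. Standard errors were taken from F as the size of the log2 change over its square root. The scripts were tested on simulated data. Alternatives were other scalings, filters and tools (DESeq2 1.42.0, limma-voom with limma 3.58.1), a replicate block, a fit of only the groups compared, removal of Rn45s and haemoglobin genes, and each library left out. No libraries agreed within sampling noise. Positions and exon lengths are from GENCODE M21 and promoters from RefSeq.

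Values in every library are given for the 2 members of each role with the highest mean CPM, not scaled to length, for the members with the largest and smallest changes, and for most of those whose call differed from the others. From each other list the 3 or 4 genes with the highest mean CPM and those against its direction are named. The members and lists were chosen with earlier results of these data known. A further marker list is not reported here.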

Additional observations from a re-analysis of the deposited data

Results flagged for a closer look

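The mitosis genes below differed between irradiated times by edgeR's quasi-likelihood test of the difference itself, with Benjamini-Hochberg adjustment over all genes tested. From 8 to 11 d the log2 difference was 1.10 for Foxm1 (adjusted p = 0.0179), 0.78 for Tpx2 (adjusted p = 0.043) and 0.76 for Ube2c (adjusted p = 0.0464), each higher in 3 of 3 libraries of 11 d than in all of 8 d. Of 21 alternative fits these calls held in 18, 11 and 8. From 8 to 14 d it was 1.19 for Foxm1 (adjusted p = 0.00152), 1.06 for Mki67 (adjusted p = 0.0038) and 0.99 for Espl1 (adjusted p = 0.0063), called in all 21 fits. The same comparison gave 0.62 for Anln (adjusted p = 0.0331), 0.62 for Cenpe (adjusted p = 0.0415), 0.59 for Tpx2 (adjusted p = 0.0406), 0.55 for Cdca8 (adjusted p = 0.0419) and 0.51 for Incenp (adjusted p = 0.0292), calls that held in 14, 13, 13, 9 and 15 of the 21 fits. Pttg1 went the other way, with a difference of -0.59 (adjusted p = 0.0103), called in 20 of the 21 fits. In each of these 9 comparisons of 14 d with 8 d the 3 libraries of one time lay on 1 side of all 3 of the other. Of all genes tested, 15.1% had all 14 d libraries above all 8 d libraries and 14.9% had them below. All 11 d libraries lay above all 8 d libraries for 9.57%. The genes were picked by a test on the same libraries, so such separation adds no support. Both times of a comparison were tested in 1 fit with the unirradiated libraries.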

How the results depend on the processing

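None of the mitosis genes reversed its direction against unirradiated lung under any alternative, nor did the 12 differences called between irradiated times. Other lists and the differences not called between irradiated times were not rerun gene by gene. Counts against unirradiated lung stayed within 1.5 times the reported ones in all fits but 1. The number higher at 8 d (25) ran from 15 to 27 when 1 library was left out, the lowest without unirradiated replicate 2, at 11 d (37) from 34 to 38, and at 14 d (37) from 33 to 38. The number higher at 11 d against 8 d (3) was 1 with library size alone, 5 with no expression filter, 15 with DESeq2, 0 when only the groups compared were fitted, and 0 to 8 with 1 library left out. At 14 d against 11 d (0) it was 1 with DESeq2 and 0 to 1 with 1 library left out. At 14 d against 8 d the number higher (8) was 3 with library size alone, 15 with DESeq2 and 3 to 14 with 1 library left out, and the number lower (1) was 0 to 1. The cause was not tested. Of all genes tested, the number higher at 11 d against 8 d (288) was 607 with DESeq2, 118 in a fit of only those groups and 2 to 355 with 1 library left out. At 14 d against 11 d it (134) was 386 with DESeq2 and 7 to 360 with 1 left out, and the number lower (162) was 441 in the highest alternative and 6 to 321 with 1 left out. At 11 d against 8 d the number lower (65) ran from 25 to 261 over the other settings and from 0 to 190 with 1 left out. With 1 library left out, the number higher at 8 d against unirradiated (2139) was at least 1507 and the number lower (1752) at least 1086. Likewise, at 14 d against 8 d the numbers higher (1335) and lower (1201) were at least 797 and 595. Correlations between libraries, after group means were subtracted, did not settle whether replicate numbers pair them. Over all pairs of groups those of same-numbered libraries ran from -0.35 to 0.29 and those of other numbers from -0.44 to 0.46. Between unirradiated and 8 d libraries the same-numbered ones ran from 0.09 to 0.17 and the others from -0.17 to -0.02. Between 8 and 11 d libraries the ranges overlapped, from -0.12 to 0.10 and from -0.14 to 0.21. With a replicate block 24, 37 and 37 mitosis genes were higher at 8, 11 and 14 d, 3 at 11 d against 8 d, 0 at 14 d against 11 d and 9 at 14 d against 8 d. Over the values of single genes, 22 of the calls were lost and 4 gained under the settings other than leaving out 1 library, while 1162 values kept direction and call. Of these, 7 losses and 1 gain came from the fit of only the groups compared, which drops the libraries of the other groups. With 1 library left out 100 were lost, 9 gained and 1475 kept. The median log2 difference from 11 to 14 d ran from -0.22 to 0.04, the last without 11 d replicate 1. Cdc25c, with as few as 10 reads in a library, had a standard error of 0.45 at 8 d against 0.14 for Pttg1. That of Mki67, with at least 930 reads in every library, was 0.21. What set the size of these errors was not tested.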
